A study of Homo sapiens with 6 samples.

Results

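Kinesins are motor proteins that walk along or take apart microtubules. The genes described here are those of the kinesin superfamily whose symbol starts with KIF and a digit, together with 18 chosen proteins that build the mitotic spindle or divide the cell. The choice was made by symbol, with earlier results of these data known. It gave 57 of the 34694 genes listed in the expression table: 39 kinesins and 18 spindle and cytokinesis proteins. Of the kinesins, 13 were classed as mitotic and 24 as motors of transport, cilia or other settings. KIF2A and KIF24, which act on spindles or centrioles and also in cells outside mitosis, were kept as a pair of their own. Total RNA was measured on Illumina expression arrays in SCC25, a long-established line derived from a squamous carcinoma of the mouth. Cells were grown for 72 h with 2.0 mM aspirin, which blocks the prostaglandin-forming cyclooxygenases, or left untreated as controls. Each group had 3 arrays. Replicates 1 and 3 of both groups were on chip 1 and replicate 2 of both was on chip 2.

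In a dividing cell, microtubules growing from the centrosomes and around the chromosomes are sorted into a bipolar spindle. Kinesins slide the microtubules apart, shorten their ends and push the chromosomes, and at anaphase a further set bundles the midzone between the separating chromosomes and marks where the cell will divide. Many of these motors are made mainly in G2 and mitosis and destroyed afterwards, and a repressor complex that binds the cell cycle homology region (CHR) of their promoters holds them down in resting cells. The transport kinesins instead carry vesicles, mitochondria and ciliary cargo and are used at all times.

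Promoter sequences are shown because the mitotic genes moved together in these data and the CHR is a known element of such promoters. RefSeq windows of GRCh38.p14 reach from 250 bases before to 50 bases after the gene start and were found for 46 of the 57 genes. Each window was searched on both strands for the CHR element, written TTTGAA or TTTAAA, and for the CCAAT box. Capitals mark these matches. The kinesins with the largest falls below are shown first, at chr5:138178862-138179161 on the plus strand for KIF20A, chr1:44739587-44739886 on the plus strand for KIF2C and chr1:200620702-200621001 on the minus strand for KIF14.
KIF20A: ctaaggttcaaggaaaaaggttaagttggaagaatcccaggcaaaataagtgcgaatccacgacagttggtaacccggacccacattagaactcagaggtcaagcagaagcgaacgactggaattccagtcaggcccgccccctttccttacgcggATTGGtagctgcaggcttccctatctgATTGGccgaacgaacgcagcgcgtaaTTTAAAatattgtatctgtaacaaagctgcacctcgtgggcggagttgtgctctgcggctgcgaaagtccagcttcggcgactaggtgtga
KIF2C: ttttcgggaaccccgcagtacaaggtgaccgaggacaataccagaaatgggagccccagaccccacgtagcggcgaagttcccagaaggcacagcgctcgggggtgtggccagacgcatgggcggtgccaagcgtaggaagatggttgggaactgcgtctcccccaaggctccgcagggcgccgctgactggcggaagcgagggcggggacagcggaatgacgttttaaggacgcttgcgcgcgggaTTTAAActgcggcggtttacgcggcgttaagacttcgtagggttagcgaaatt
KIF14: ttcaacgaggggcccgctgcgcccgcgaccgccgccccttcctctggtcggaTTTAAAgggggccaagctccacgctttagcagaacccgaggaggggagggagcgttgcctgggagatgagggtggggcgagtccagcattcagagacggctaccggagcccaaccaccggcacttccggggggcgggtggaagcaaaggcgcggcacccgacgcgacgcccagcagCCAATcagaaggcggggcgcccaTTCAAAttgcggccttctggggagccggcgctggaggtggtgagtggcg

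Among the spindle proteins, those with the largest falls that had a window were DLGAP5, at chr14:55191536-55191835 on the minus strand, and HMMR, at chr5:163460382-163460681 on the plus strand.
DLGAP5: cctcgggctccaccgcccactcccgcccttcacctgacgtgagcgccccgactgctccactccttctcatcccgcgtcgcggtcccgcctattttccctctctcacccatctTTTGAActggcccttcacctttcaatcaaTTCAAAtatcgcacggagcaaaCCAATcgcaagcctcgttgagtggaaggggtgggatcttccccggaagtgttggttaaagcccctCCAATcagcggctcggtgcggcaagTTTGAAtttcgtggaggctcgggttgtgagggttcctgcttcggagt
HMMR: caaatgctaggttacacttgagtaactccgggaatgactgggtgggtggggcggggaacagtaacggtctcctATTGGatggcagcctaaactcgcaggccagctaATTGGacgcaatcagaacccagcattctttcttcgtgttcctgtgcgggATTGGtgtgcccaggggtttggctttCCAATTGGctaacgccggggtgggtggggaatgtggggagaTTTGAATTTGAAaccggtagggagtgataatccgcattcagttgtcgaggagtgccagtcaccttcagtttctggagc

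For contrast, the brightest transport-class kinesins are shown, KIF21A at chr12:39443071-39443370 and KIF5B at chr10:32056376-32056675, both on the minus strand.
KIF21A: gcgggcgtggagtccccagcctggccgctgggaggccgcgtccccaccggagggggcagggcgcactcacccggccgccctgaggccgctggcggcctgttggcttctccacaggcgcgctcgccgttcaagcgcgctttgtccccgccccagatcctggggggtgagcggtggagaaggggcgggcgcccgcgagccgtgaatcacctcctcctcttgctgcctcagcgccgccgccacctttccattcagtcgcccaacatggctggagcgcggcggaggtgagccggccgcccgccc
KIF5B: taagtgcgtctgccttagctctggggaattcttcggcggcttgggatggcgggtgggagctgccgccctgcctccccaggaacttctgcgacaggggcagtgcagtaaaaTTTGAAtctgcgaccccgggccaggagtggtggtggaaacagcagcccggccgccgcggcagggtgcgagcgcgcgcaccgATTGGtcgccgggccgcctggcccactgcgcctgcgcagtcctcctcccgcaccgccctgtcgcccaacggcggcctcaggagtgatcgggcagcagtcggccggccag

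A CHR element stood in 11 of 14 windows of the mitotic kinesins (78.6%) and in 10 of 14 windows of the spindle proteins (71.4%). It stood in 2 of 26 windows of the other kinesins (7.69%) and in 8424 of all 35116 promoter windows (24.0%). Among the other kinesins whose expression could be tested it stood in 2 of 11 windows (18.2%), nearer the share of all promoters, and among the tested mitotic kinesins in 8 of 10 (80%). The windows of KIF22 and KIF2B among the mitotic kinesins, and of PSRC1, CKAP2, TACC3 and NEK2 among the spindle proteins, held none. Within 60 bases of the start, a distance chosen after the positions were seen, the element stood in 11 of 14 mitotic kinesin windows, in 9 of 14 spindle protein windows, in 0 of 26 of the others and in 8.27% of all promoters. Both matches of the other kinesins lay farther upstream, starting 140 bases before the start of KIF5B and 241 bases before that of KIF16B. A CCAAT box was found in 71.4% of windows of each of both mitotic classes, in 30.8% of those of the other kinesins and in 34.6% of all promoters. Some genes have several overlapping windows, and a match of 5 or 6 letters is a description and not a shown binding site.

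**Figure D1:**
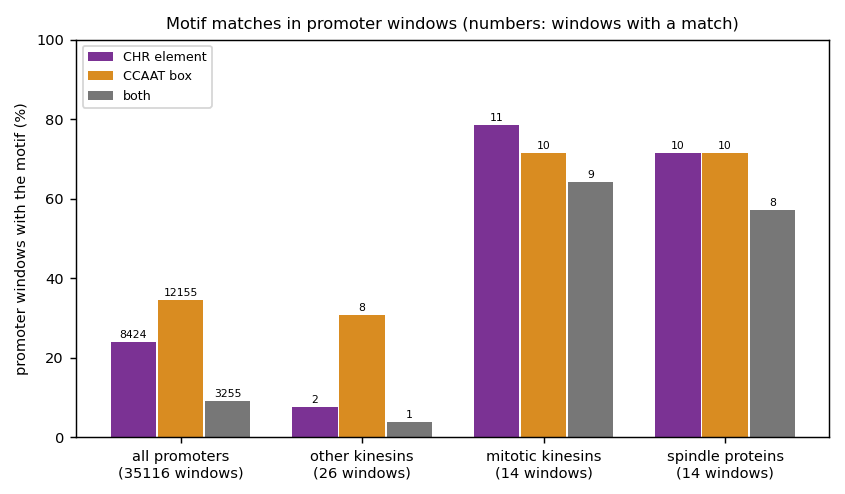
Share of promoter windows (y axis, percent; bars start at 0) that hold a CHR element, a CCAAT box or both, for all promoters and for the 3 gene classes, with the number of matching windows above each bar. The CHR element was found in 78.6% of mitotic kinesin windows and 7.69% of the other kinesin windows.

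All 8 squamous epithelial markers examined were above background on all 6 arrays of this squamous line. Their summed signal over background was 49365 to 60369 intensity units in controls and 34383 to 42603 with aspirin. Of 6 fibroblast markers, 3 were above background on all arrays, PDGFRB on none, and their sum was 360 to 1032 units in controls and 90.4 to 151 with aspirin. Of 4 endothelial markers CDH5 and KDR, and of 5 leukocyte markers PTPRC, CD3E and LYZ, were on no array above background. The leukocyte sum, to which CD14 and CD79A contributed, was 271 to 463 units in controls and 140 to 199 with aspirin, and the endothelial sum 5.18 to 66.8 and 7.67 to 30.9. The part of these shifts in the results was not tested. Arrays had 14691 to 15170 detected genes, and arrays of 1 group correlated at r = 0.977 to 0.991 across genes. Nothing in the labels says whether the 3 replicates came from independent cultures. The p-values therefore reflect how far these arrays scatter, possibly for technical reasons, and precision is limited by how few arrays there are.

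All mitotic kinesins and spindle proteins that could be tested were lower with aspirin, and of the transport-class kinesins 1 changed, upward. Of 15128 genes tested, 20.2% passed, 9.73% as lower and 10.5% as higher, at an adjusted p under 0.05. Of the 13 mitotic kinesins 9 were tested and all 9 fell, with a median difference of -2.49 on the log2 scale. All 18 spindle proteins were tested and fell, with a median of -2.61. Of the 24 other kinesins 12 were tested, of which 0 fell, 1 rose and 11 did not pass, with a median of 0.16. The median of all genes tested was 0.02. Adjusted p here and below is limma's, with Benjamini-Hochberg adjustment over all genes tested, and differences are aspirin minus control of normalized log2 signal ± SE from 3 arrays per group. In RNA of whole cultures, fewer cells in G2 and mitosis and less RNA of these genes per cell cannot be told apart.

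Each of the 41 tested genes of this set was detected on at least 1 aspirin array, and 36 were detected on all 6 arrays. KIF4A and TACC3 were detected on 2 aspirin arrays, and PSRC1 and KIF24 on 1. These genes, of which all but KIF24 fell, met the filter of 3 arrays through their controls. In all 27 genes that fell, every aspirin array lay below every control array, as in 18.2% of all genes tested. Falls of at least 2 log2 units past the threshold were made by 95 genes (0.628% of those tested), and 20 of these 95 (21.1%) were mitotic kinesins or spindle proteins from this set. These 20 were 48.8% of the 41 tested members, which themselves make up 0.271% of the genes tested. The same counts, 9 of 9 and 18 of 18 falling, were found with the chip as a block and on the chip 1 arrays alone, with medians of -2.54 and -2.64 on chip 1. In the single pair of chip 2 the medians were -2.30 and -2.28. The other kinesins had a median of 0.20 on chip 1 and 0.17 in the chip 2 pair.

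**Figure D2:**
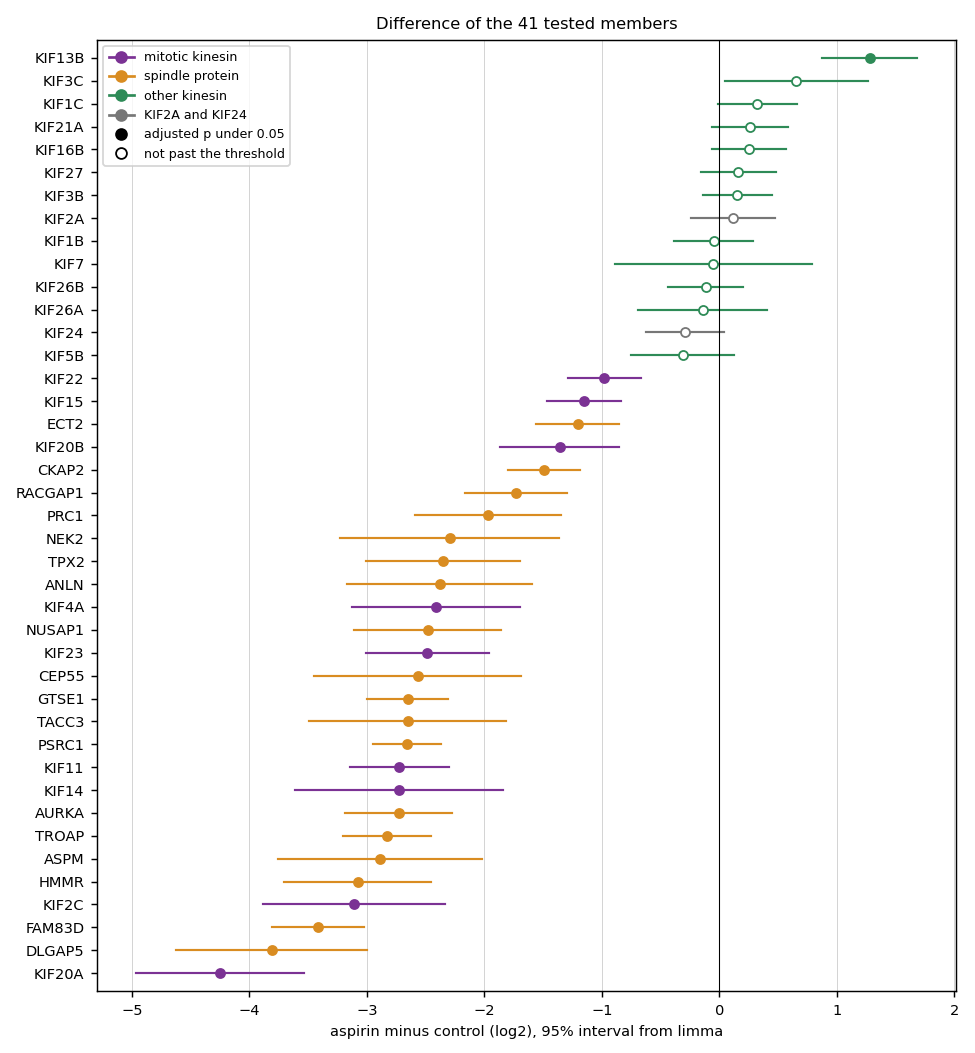
Difference between aspirin and control (x axis, log2) for the 41 tested genes (y axis), with 95% intervals from limma; filled points passed an adjusted p under 0.05. The 27 mitotic genes span -4.25 to -0.98, and the other kinesins span -0.31 to 1.28, with intervals that include 0 except for KIF13B and KIF3C.

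Motors of the anaphase midzone and of cytokinesis held the largest fall of all genes tested. KIF20A, which carries the chromosomal passenger complex from the chromosomes to the midzone, had normalized levels of 10.13, 10.44 and 10.42 in controls 1 to 3 and of 5.27, 6.57 and 6.40 in aspirin replicates 1 to 3. Its difference was -4.25 ± 0.31 (adjusted p = 0.000231), a 19.0-fold fall, and no other gene tested fell further. In signal over background, KIF20A went from 1097, 1698 and 1309 intensity units in controls to 17.4, 93.2 and 63.9 with aspirin, so that 1.58, 5.49 and 4.88% were left in pairs 1 to 3. KIF23, the motor of centralspindlin, which bundles midzone microtubules, lay at 7.67, 8.16 and 8.43 in controls and at 5.25, 5.70 and 5.85 with aspirin (-2.49 ± 0.23, adjusted p = 0.000592). KIF4A, a chromokinesin that limits the length of midzone microtubules, lay at 7.30, 8.05 and 7.86 and then at 4.67, 5.89 and 5.40 (-2.41 ± 0.31, adjusted p = 0.00175). On 1 aspirin array KIF4A did not rise above background. All 3 of these motors were lowest on the replicate 1 array within each group.

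KIF14, which recruits citron kinase to the midbody, lay at 8.22, 8.92 and 8.85 in controls and at 4.98, 6.62 and 6.20 with aspirin, a difference of -2.73 ± 0.39 (adjusted p = 0.00262). The spread of KIF14 with aspirin, an SD of 0.85, was wider than the 0.39 of controls. The aspirin SD was the larger in 24 of the 27 genes that fell. KIF20B, a relative of KIF20A that also acts in cytokinesis, changed less, from 8.85, 9.48 and 9.14 to 7.41, 8.08 and 7.89 (-1.36 ± 0.22, adjusted p = 0.00471). The intervals of KIF20A (-4.96 to -3.54) and of its relative KIF20B (-1.87 to -0.85) did not overlap.

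The kinesins of spindle assembly fell as well, with differences from -3.11 to -0.98 on the log2 scale. KIF2C, which shortens microtubules at kinetochores and so helps to correct wrong attachments, lay at 8.53, 9.39 and 9.22 in controls and at 5.18, 6.38 and 6.25 with aspirin (-3.11 ± 0.34, adjusted p = 0.000965). KIF11, the motor that slides spindle poles apart, lay at 8.23, 8.38 and 8.54 and then at 5.31, 5.76 and 5.92 (-2.72 ± 0.18, adjusted p = 0.000194). KIF15, which can stand in for KIF11 in keeping the spindle bipolar, changed from 6.11, 6.23 and 6.19 to 4.86, 5.17 and 5.03 (-1.15 ± 0.14, adjusted p = 0.00131). KIF15 started from a lower signal, at 47.7 to 72.1 intensity units over background in controls. KIF22, a chromokinesin that pushes chromosome arms away from the poles, had the smallest fall of the mitotic kinesins tested, from 9.71, 9.78 and 9.94 to 8.72, 8.83 and 8.94 (-0.98 ± 0.14, adjusted p = 0.00228). The 3 pairs of KIF22 kept 40.0, 47.8 and 44.8% of the control signal over background, with the highest mean over pairs, 44.2%, of any gene that fell.

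The 4 mitotic kinesins that missed the filter on detection scores were KIF18A, KIF18B, KIF4B and KIF2B. KIF18A, which damps chromosome movements at the metaphase plate, lay at 5.83, 6.48 and 5.95 in controls and at 4.64, 4.96 and 4.59 with aspirin. It was above background on all controls and on no aspirin array, so its fall is a bound of at least 2.31-fold lower. Without the filter KIF18A passed (adjusted p = 0.0106), as it did with a filter on the signal itself (adjusted p = 0.00318). KIF18B, a motor of astral microtubules, and KIF2B were not above background on any array. KIF4B, a near-identical copy of KIF4A whose value is uncertain for that reason, was above background on 1 control array. Without the filter these 3 did not pass (adjusted p = 0.240, 0.999 and 0.541 for KIF18B, KIF2B and KIF4B).

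**Figure D3:**
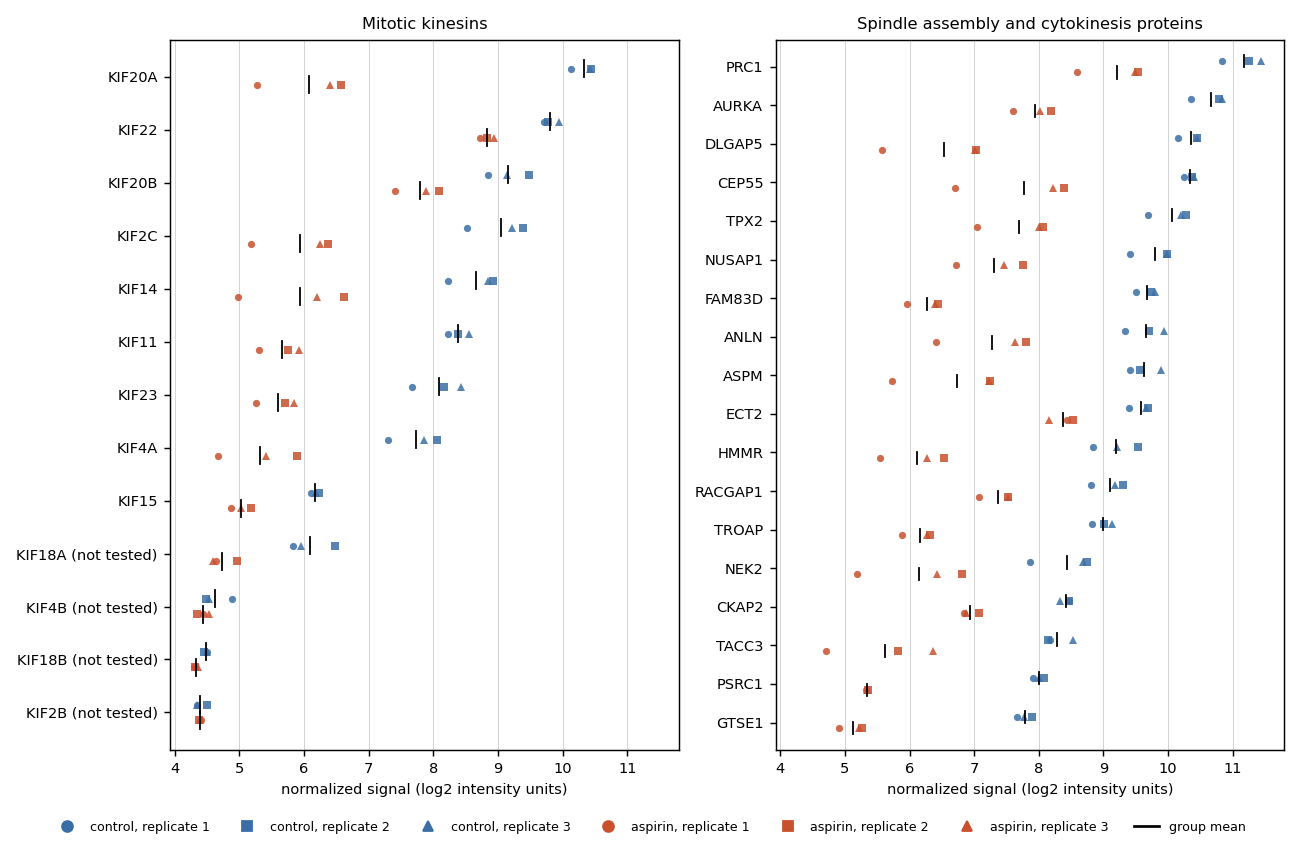
Normalized signal (x axis, log2 intensity units) of the mitotic kinesins (left) and of the spindle and cytokinesis proteins (right) on each of the 6 arrays, by group and replicate, with group means as bars. In every tested gene the 3 aspirin arrays lie below the 3 controls, and in KIF20A the groups lie at 5.27 to 6.57 and 10.13 to 10.44.

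Of the 18 other proteins, 13 act mainly in building the spindle, and these had a median difference of -2.66. AURKA, the Aurora A kinase that matures centrosomes, was among the brightest, at 10.36, 10.79 and 10.84 in controls and 7.60, 8.19 and 8.01 with aspirin (-2.73 ± 0.20, adjusted p = 0.000231). Its activator TPX2, which also starts microtubule growth near chromosomes under the control of Ran, lay at 9.69, 10.28 and 10.20 and then at 7.04, 8.06 and 8.00 (-2.36 ± 0.29, adjusted p = 0.00139). The intervals of the kinase and its activator overlapped, at -3.19 to -2.27 and -3.01 to -1.70. NEK2, a kinase that loosens the link between centrosomes, lay at 7.87, 8.75 and 8.69 in controls and at 5.19, 6.81 and 6.42 with aspirin (-2.29 ± 0.41, adjusted p = 0.00668). NEK2 had the highest adjusted p of the 27 and was the one whose call was lost in other settings, once when all listed genes set the background (-0.73, adjusted p = 0.0519) and once when the background was plainly subtracted (-2.79, adjusted p = 0.0625).

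The 3 largest falls of this group were those of DLGAP5, FAM83D and HMMR. DLGAP5, which stabilises kinetochore fibres and is also named HURP, went from 10.16, 10.45 and 10.44 to 5.58, 7.03 and 7.01 (-3.81 ± 0.36, adjusted p = 0.000609). FAM83D, which brings a casein kinase to the spindle, went from 9.50, 9.74 and 9.80 to 5.96, 6.44 and 6.39 (-3.42 ± 0.17, adjusted p = 5.2e-05). HMMR, which helps to position the spindle, went from 8.84, 9.54 and 9.21 to 5.55, 6.54 and 6.27 (-3.08 ± 0.27, adjusted p = 0.000503). These 3 kept 5.96, 6.88 and 8.59% of their control signal over background on average. TACC3, which forms bridges between fibre microtubules, was more scattered with aspirin, at 8.18, 8.15 and 8.52 and then at 4.70, 5.82 and 6.36 (-2.65 ± 0.37, adjusted p = 0.00225). On 1 aspirin array TACC3 did not rise above background.

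ASPM, which holds microtubule ends at the spindle poles, was at 9.41, 9.57 and 9.89 in controls and at 5.72, 7.25 and 7.23 with aspirin (-2.89 ± 0.38, adjusted p = 0.00187). NUSAP1, a microtubule-bundling protein near chromosomes, was at 9.41, 9.99 and 9.98 and then at 6.73, 7.75 and 7.46 (-2.48 ± 0.28, adjusted p = 0.00102). TROAP was at 8.83, 9.01 and 9.13 and then at 5.89, 6.32 and 6.28 (-2.83 ± 0.16, adjusted p = 0.000107). Pairs differed more for ASPM, with changes of -3.69, -2.32 and -2.66, than for TROAP, with -2.94, -2.69 and -2.85. PSRC1 had the lowest adjusted p and the tightest aspirin group of the tested genes of the set. It was at 7.91, 8.09 and 8.01 and then at 5.33, 5.36 and 5.34 (-2.66 ± 0.13, adjusted p = 3.81e-05). GTSE1, which restrains the microtubule-shortening activity of KIF2C, was at 7.67, 7.90 and 7.78 and then at 4.91, 5.26 and 5.22 (-2.65 ± 0.15, adjusted p = 0.000107). CKAP2 fell least of the spindle builders, from 8.47, 8.46 and 8.33 to 6.84, 7.07 and 6.88 (-1.49 ± 0.13, adjusted p = 0.000536).

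The 5 proteins of the division site had a median difference of -1.97, with values from -2.57 to -1.21. PRC1, which cross-links the microtubules of the midzone and is the partner of KIF4A there, was the brightest gene of the set, at 10.84, 11.25 and 11.44 in controls and 8.59, 9.54 and 9.48 with aspirin (-1.97 ± 0.27, adjusted p = 0.00225). RACGAP1, the partner of KIF23 in centralspindlin, lay at 8.81, 9.31 and 9.18 and then at 7.07, 7.52 and 7.52 (-1.73 ± 0.19, adjusted p = 0.000965). ECT2, the exchange factor that switches on RhoA at the division site, lay at 9.40, 9.68 and 9.66 and then at 8.43, 8.53 and 8.16 (-1.21 ± 0.16, adjusted p = 0.00173). ECT2 had the smallest fall of the 18 proteins, and of the 27 genes that fell it alone did not have its lowest aspirin level on the replicate 1 array.

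ANLN, or anillin, which anchors the contractile ring, lay at 9.34, 9.70 and 9.93 in controls and at 6.41, 7.80 and 7.62 with aspirin (-2.38 ± 0.34, adjusted p = 0.00279). CEP55, which recruits the machinery of the final cut to the midbody, lay at 10.24, 10.37 and 10.41 and then at 6.71, 8.39 and 8.21 (-2.57 ± 0.39, adjusted p = 0.00338). For both, the aspirin replicate 1 array stood lower than the other aspirin arrays by more than 1 log2 unit.

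The arrays of replicate 1 were lower in many of these genes. Of the 27 genes that fell, 25 had their lowest control on the replicate 1 array and 26 their lowest aspirin level there, and in 21 the fall was largest in pair 1. In a fit over both groups with aspirin as a term, 12 of the 41 tested genes passed as lower on replicate 1 than on replicates 2 and 3, against 4.08% of all genes tested, and 1.83% of all genes passed as higher there. Of these 12, 4 were mitotic kinesins and 6 spindle proteins, and the other pair were KIF3C and KIF7. The largest such difference was that of NEK2 (-1.14, adjusted p = 0.0122), followed by KIF14 (-1.04, adjusted p = 0.0241). Replicates 1 and 3 shared a chip. Relative to the control mean, the median of the tested mitotic kinesins was -0.31, 0.11 and 0.13 on controls 1 to 3 and -3.06, -2.04 and -2.33 on aspirin arrays 1 to 3. Without both replicate 1 arrays, all 9 mitotic kinesins and all 18 spindle proteins still passed as lower.

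The size of a fall depended on how the background was set, and the direction did not in any of the settings run. When all listed genes set the background, 16 of the 27 falls were over 1.5 times smaller. In that setting KIF20A changed by -2.97, KIF2C by -1.31, KIF14 by -0.91, KIF11 by -0.71, KIF23 by -0.56, KIF4A by -0.41 and KIF15 by -0.09. Among the spindle proteins, GTSE1 changed by -0.43 there, PSRC1 by -0.52, CKAP2 by -0.57, TACC3 by -0.64 and TPX2 by -2.24. The falls of AURKA (-2.96), PRC1 (-2.48), KIF22 (-1.24) and ECT2 (-1.28) were larger than with the reported background. Over 20 other settings, 535 of 537 values of these genes passed in the same direction, the exceptions being the NEK2 values above.

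**Figure D4:**
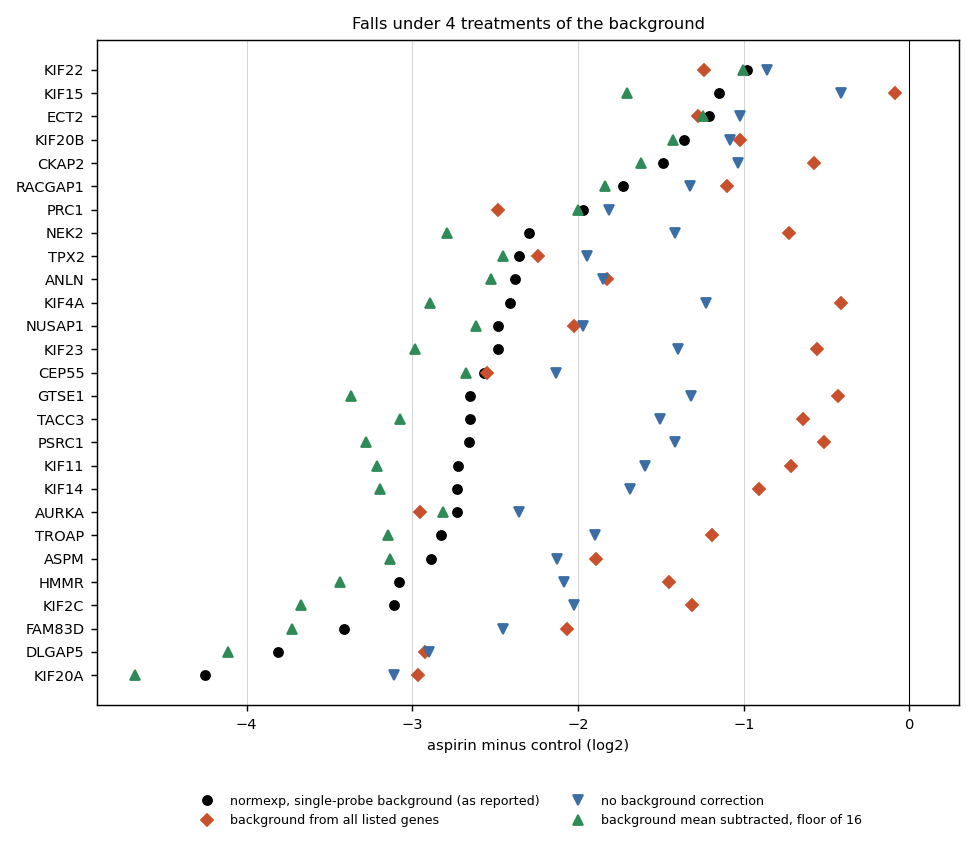
Difference between aspirin and control (x axis, log2) of the 27 genes that fell (y axis) under 4 treatments of the array background. All values lie below 0, and those of KIF15 range from -1.70 to -0.09.

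Most transport-class kinesins did not pass. KIF13B, a motor that carries membrane-bound scaffold proteins, was the exception, at 5.55, 5.48 and 5.03 in controls and at 6.63, 6.78 and 6.48 with aspirin. It rose by 1.28 ± 0.18 (adjusted p = 0.00224). Its groups did not overlap, as in 4 of the 12 tested other kinesins and in 20.6% of all genes tested in that direction. The rest of these 4 were KIF16B, KIF1C and KIF3B, which did not pass. KIF13B passed in all 20 other settings, with its smallest rise, 0.13, with the all-gene background. Its signal over background was 15.8 to 36.0 intensity units in controls and 65.2 to 112 with aspirin.

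The 3 other kinesins of highest mean signal did not pass. KIF5B, the ubiquitous conventional kinesin heavy chain, lay at 8.74, 8.86 and 8.71 in controls and at 8.71, 8.62 and 8.04 with aspirin (-0.31 ± 0.19, adjusted p = 0.291), with an interval of -0.75 to 0.12. KIF21A, which restrains microtubule growth at the cell edge, lay at 8.72, 8.74 and 8.81 and then at 9.12, 9.12 and 8.81 (0.26 ± 0.14, adjusted p = 0.239), with an interval of -0.06 to 0.58. KIF3B, a subunit of the kinesin that builds cilia, lay at 7.60, 7.52 and 7.63 and then at 7.86, 7.69 and 7.66 (0.15 ± 0.13, adjusted p = 0.456), with an interval of -0.14 to 0.45. The difference of each tested mitotic kinesin lay below all 3 of these intervals, although the interval of KIF22, -1.29 to -0.67, overlapped that of KIF5B.

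KIF3C, a relative of KIF3B, was at 5.05, 5.72 and 5.99 in controls and at 5.95, 6.15 and 6.64 with aspirin (0.65 ± 0.27, adjusted p = 0.122). It was higher in all 3 pairs and passed with the replicate number as a block (adjusted p = 0.00904). Of the other tested motors, KIF1B and KIF1C of vesicle and mitochondrial transport differed by -0.05 and 0.32, the endosomal KIF16B by 0.25 and the ciliary KIF27 and KIF7 by 0.16 and -0.05. KIF26A and KIF26B, which lack motor activity, differed by -0.14 and -0.12. None of these 7 passed (adjusted p from 0.162 to 0.941). KIF7, which scaffolds Hedgehog signalling in cilia, was lowest on the replicate 1 array of each group, at 4.89 in controls and 5.21 with aspirin.

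The 12 other kinesins that were not tested were KIF1A, KIF3A, KIF5A, KIF5C, KIF6, KIF9, KIF12, KIF13A, KIF17, KIF19, KIF21B and KIF25, several of them known mainly from neurons, cilia or sperm. Of the 16 kinesins of any class that were not tested, 12 were not above background on any array. Without the filter, KIF21B passed as higher (0.40, adjusted p = 0.0216), from 4.45, 4.49 and 4.54 to 4.82, 4.93 and 4.94, although its signal was above background on no array. KIF2A, a microtubule-shortening motor of spindle poles and of neurons, lay at 8.12, 8.05 and 7.93 in controls and at 8.39, 8.13 and 7.92 with aspirin (0.12 ± 0.16, adjusted p = 0.656). KIF2A thus did not pass, while its relative KIF2C fell by 3.11, and their intervals of -0.24 to 0.47 and -3.89 to -2.33 did not overlap. KIF24, which acts at centrioles against cilium formation, was dim, at 4.99, 4.66 and 4.80 and then at 4.45, 4.48 and 4.65 (-0.29 ± 0.14, adjusted p = 0.190). Its groups did not overlap, and it was above background on 1 aspirin array.

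**Figure D5:**
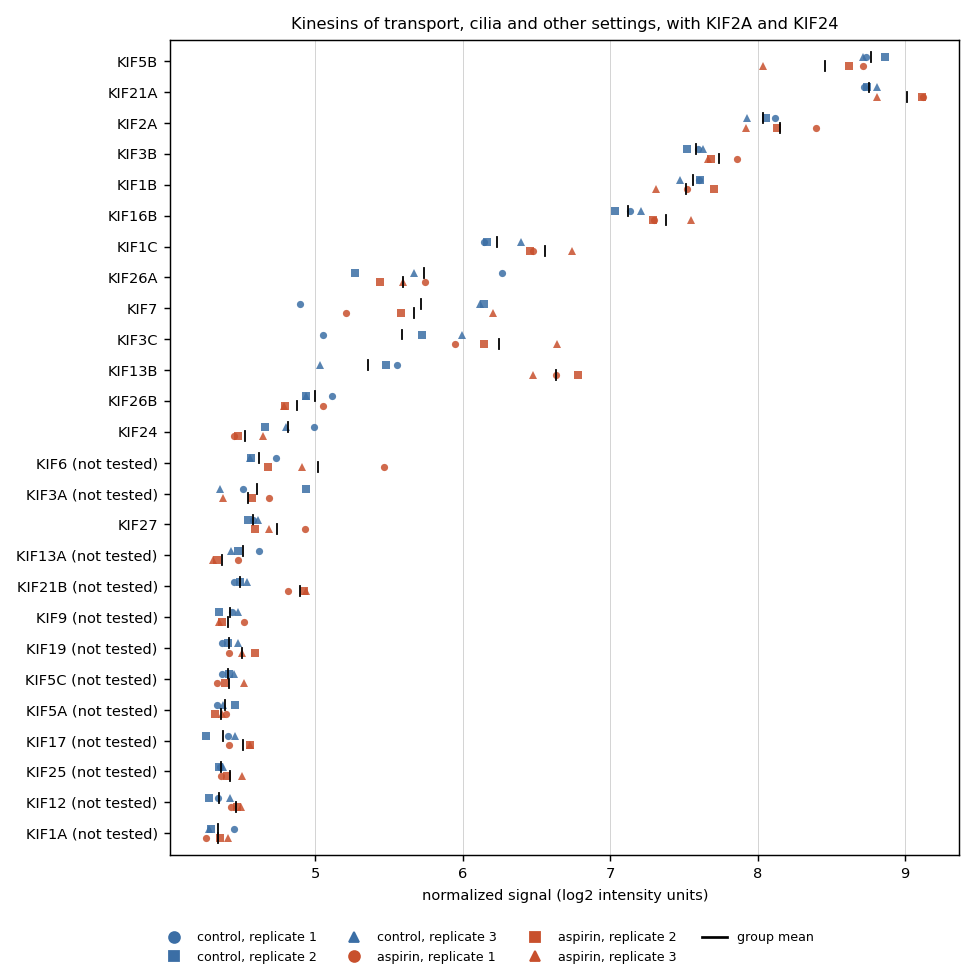
Normalized signal (x axis, log2 intensity units) of the 24 other kinesins, KIF2A and KIF24 on each array, by group and replicate, with group means as bars. The groups overlap in most genes, and KIF13B lies at 5.03 to 5.55 in controls and 6.48 to 6.78 with aspirin.

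Kinesin genes whose names do not start with KIF and a digit moved both ways. Of 10 such genes, which include the kinesin light chains, 8 were tested and 2 fell, 2 rose and 4 did not pass. Over all genes tested, 9.73% passed as lower and 10.5% as higher. The kinetochore motor CENPE (-2.78 ± 0.14, adjusted p = 5.47e-05) and KIFC1, a motor that gathers spindle poles (-2.64 ± 0.19, adjusted p = 0.000231), fell. KIFC2 rose by 1.45 ± 0.14 (adjusted p = 0.000618), as did KLC3, a kinesin light chain (1.66 ± 0.22, adjusted p = 0.00189). The opposite-running motor was also examined. Of 21 tested genes of dynein and dynactin 0 rose, 2 fell and 19 did not pass, a share of falls near the 9.73% of all genes tested. Those that fell were PAFAH1B1, or LIS1 (-0.85 ± 0.15, adjusted p = 0.00588), and its partner NDE1 (-0.71 ± 0.18, adjusted p = 0.0276), both regulators of dynein with roles in mitosis. With the replicate block, which called 5012 of all 15128 genes, 4 of the list were lower and 1 higher. The list had 6 lower without background correction, 4 with an offset of 50 or the signal filter, 0 on chip 1 alone, and 1 without control replicate 2 or 3 or without aspirin replicate 2 or 3.

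Among partners of these motors, regulators of mitosis were among those that fell. The counts below stand beside 9.73% of all genes tested that passed as lower and 10.5% as higher. In the list of the chromosomal passenger complex and cytokinesis regulators, 6 of 11 tested genes fell, 1 rose and 4 did not pass, with a median of -1.18. The lowest adjusted p values were those of BIRC5, or survivin (-3.36 ± 0.19, adjusted p = 0.000107), PLK1 (-2.47 ± 0.15, adjusted p = 0.000125) and SEPT2 (-1.18 ± 0.15, adjusted p = 0.00164). ARHGEF2, a microtubule-bound exchange factor for RhoA, was the one that rose (1.36 ± 0.19, adjusted p = 0.00225). Of 16 other spindle assembly regulators tested, 6 fell, 1 rose and 9 did not pass, with a median of -0.27. Those with the smallest p were the cyclins CCNB1 (-3.41 ± 0.15, adjusted p = 2.65e-05) and CCNB2 (-3.06 ± 0.31, adjusted p = 0.000763) and the spindle protein SPAG5 (-1.19 ± 0.13, adjusted p = 0.00107). MAPRE3, a protein of growing microtubule ends, passed as higher (0.61 ± 0.17, adjusted p = 0.0371). No gene of this list passed as higher with the all-gene background, with subtraction, without the filter (5 lower each), on chip 1 alone, or without control replicate 2, control replicate 3, aspirin replicate 1 or aspirin replicate 3 (4 lower each).

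Of 13 tested genes of augmin and the gamma-tubulin ring, 0 rose, 3 fell and 10 did not pass, with a median of -0.05. On chip 1 alone 0 of these 13 passed. The 3 were gamma-tubulin TUBG1 (-0.69 ± 0.13, adjusted p = 0.00706), HAUS8 (-0.65 ± 0.13, adjusted p = 0.0115) and TUBGCP5 (-0.57 ± 0.17, adjusted p = 0.0433). Of 10 genes of Ran and the importins 3 fell, 1 rose and 6 did not pass. For both lists the shares over all genes tested were 9.73% lower and 10.5% higher. KPNA2, the importin alpha that holds TPX2 inactive, fell by 1.79 on the log2 scale (SE 0.16, adjusted p = 0.000471), and RANBP1 differed by -0.67 ± 0.19 (adjusted p = 0.0401), while TNPO1 differed by 0.62 ± 0.15 (adjusted p = 0.0244). The count of 4 called in this list was 1 with the all-gene background, on chip 1 alone, or without control replicate 3, aspirin replicate 1 or aspirin replicate 3, and 2 with subtraction, without the filter, or without control replicate 2 or aspirin replicate 2.

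In the list of the CHR-binding complexes and their regulators, 14 genes were tested, of which 2 fell, 1 rose and 11 did not pass, with a median of -0.11. This share called is near the 20.2% of all genes tested, and on chip 1 alone 1 gene of the list was called. FOXM1, a transcription factor that drives G2 and mitosis genes, went from 7.76 ± 0.23 (SD) to 5.98 ± 0.49 (SD), a difference of -1.78 ± 0.25 (adjusted p = 0.00226). TFDP1, the partner of E2F factors, fell too (-0.63 ± 0.13, adjusted p = 0.0105). E2F5, a repressor-class E2F, rose by 1.67 ± 0.25 (adjusted p = 0.00319). CDKN1A, of the same list, missed the filter on detection scores and was not tested, although it was above background on all 6 arrays. It lay at 9.88, 10.27 and 9.98 in controls and at 10.98, 10.58 and 10.41 with aspirin. RBL1 was not tested either. The genes of all these lists share the 6 arrays and the control arrays with the genes above, so their changes are side-by-side values and no separate evidence.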

How the data were processed

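SCC25 RNA was measured on 6 Illumina arrays, 3 control and 3 aspirin. The deposited intensity values were not normalized; the submitters' processing notes name GenomeStudio 1.9.0. Probe annotation and genome build were not given in the sources used. The deposited detection columns are headed as p-values, but rise with signal, and were read as a score. The deposited value matrix equals signal minus a constant for 15338 of 34686 same-named genes within 0.3 units and was not used for tests. Background mean and SD were inferred from the scores of 27647 genes, followed by normexp correction, an offset of 16, quantile normalization and log2. Genes with a score over 0.95 on at least 3 arrays were tested in limma 3.58.1 (R 4.3.3), with 95% intervals and a threshold of 0.05 after Benjamini-Hochberg adjustment. Above background means a score over 0.95, or a signal over the background mean by more than 3 SD. Some genes of the other lists, among them CDKN1A, DYNLT3 and HAUS1, were above background on all arrays and yet missed the score filter. The fit was tested on simulated data. Same-numbered arrays deviated together (r = 0.507, 0.515 and 0.319 for replicates 1 to 3), so a fit with the replicate as a block was run; this pairing comes from the data and not the labels. Named with array values were all mitotic kinesins and spindle proteins, other kinesins past the threshold and the 3 brightest of them; from other lists, up to 3 genes of smallest p and any past the threshold against the list's median. Further kinesins with array values, and CDKN1A, were chosen after their values were seen. Members and lists were chosen with earlier results of these data known.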

Additional observations from a re-analysis of the deposited data

How the results depend on the processing

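The 27 genes that fell passed as lower in each alternative that tested them, except NEK2 in the 2 background settings given above. Without the filter KIF18A also passed as lower, while KIF18B, KIF2B and KIF4B did not pass. With the filter for detection on all 6 arrays 8 mitotic kinesins and 16 spindle proteins were tested (not KIF4A, PSRC1 and TACC3), and the chip 2 pair allows no test. The number of genes called over the whole table was 860 on chip 1 alone, 5012 with the replicate block, which changed no member's call but that of KIF3C, 3131 without both replicate 1 arrays, and 1775 to 2745 with 1 array left out (1862 without control replicate 3, 2028 without aspirin replicate 2, 2074 without control replicate 2 and 1775 without aspirin replicate 3). Median scaling made 59.7% of calls lower, against 48.1%. Of the other kinesins 2 were called without the filter (KIF13B and KIF21B) and 2 with the replicate block (KIF13B and KIF3C). The mitotic kinesin median was -0.91 with the all-gene background, -1.40 without background correction, -2.98 with subtraction, -1.89 with an offset of 50, -1.36 without the filter over 13 genes, -2.30 in the chip 2 pair and -2.70 to -2.25 with 1 array left out. The spindle protein median was -1.64, -1.87 and -2.15 with the all-gene background, no correction and the offset of 50, -2.28 in the chip 2 pair and -2.71 to -2.19 with 1 array left out, and -2.31 without both replicate 1 arrays. The other kinesin median was 0.026 with the all-gene background, 0.13 to 0.19 with 1 array left out and 0.082 without both replicate 1 arrays. Of 140 counts over the other lists, 25 moved by over 1.5 times. The cause of these shifts was not tested. Signal near background limits the size of the larger falls.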
